A study of Homo sapiens with 12 samples.

Results

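The SLC25 carriers are a family of proteins of the inner mitochondrial membrane that pass metabolites, nucleotides, cofactors and ions between the cytosol and the matrix. They were taken as every row of the expression table whose gene name is SLC25A followed by a number. This gave 48 of the 35337 rows, and all 48 had at least 1 read in some library. The table holds normalised read counts of EndoC-βH3 cells, a human beta-like cell line derived from a fetal pancreas and immortalized with hTERT and SV40 Large T antigen. Non-senescent cells (labelled control) kept both transgenes. Senescent cells had received 4-hydroxy tamoxifen during 3 weeks, which activates CreER and removes the transgenes. Both groups are of the same line and held 6 samples each, split over batches A (2 of each) and B (4 of each), after the letters in the sample titles. No source states what the batches differ in beyond their being separate, nor that samples of 1 batch are separate cultures, so the p-values measure the spread between these samples, which may be technical. A group is also limited as a model by being 1 line from 1 pancreas, and no sample is labelled as given the drug without excision.

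Most SLC25 carriers have 6 membrane-spanning helices and exchange 1 substrate for another. In beta cells, where insulin release follows the oxidation of glucose, ADP/ATP exchange, phosphate entry, the malate-aspartate shuttle, the export of citrate and malate and the passage of glutamate run through members of this family. Several carriers have a close paralog, and a few still have no substrate agreed on.

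Libraries held 4672924 to 17106776 reads, and within each batch every senescent library was deeper than every non-senescent one. For a gene at 0 the count allows up to 3 reads (1.35 to 4.52 normalised read counts, depending on the library), a limit that covers counting error only. CDKN1A (p21), induced in senescence, was at 24.5 to 76.0 normalised read counts in non-senescent and 133 to 1501 in senescent samples. MKI67, a proliferation marker, was at 411 to 735 and 63.7 to 88.4, so both went the way of the labels. The size of both changes differed between batches (interaction adjusted p = 0.00191 for CDKN1A and 0.0220 for MKI67). CDKN1A had log2 fold changes of 2.18 in A and 4.78 in B, and MKI67 of -3.45 and -2.51. All 7 beta cell markers passed the filter on low values, and 5 of them rose, among them INS with a log2 fold change of 2.23 ± 0.11 (SE). The other 2 beta markers had negative values, NKX6-1 with -0.37 (adjusted p = 0.0137, below the fold limit; 0.11 in batch A and -0.61 in batch B) and SLC30A8 with -0.16 (adjusted p = 0.237; -0.63 in A and 0.08 in B), and both differed between batches (interaction adjusted p = 0.0174 and 0.00521). The delta cell hormone SST was at 159785 to 287479 normalised read counts in non-senescent and 114932 to 142626 in senescent samples, against 11021 to 34331 and 49685 to 185508 for INS. SST and HHEX, the delta markers, both fell, 1 of 3 alpha markers (GCG) fell, 1 of 3 duct markers (KRT19) fell and 1 of 2 leukocyte markers (PTPRC) fell. The responses of SST, GCG and the alpha marker IRX2 also differed between batches (interaction adjusted p = 7.47e-04, 6.81e-06 and 1.05e-04). SST had log2 fold changes of -1.24 in A and -0.35 in B, GCG of -2.36 and -0.77, and IRX2 of 0.38 and -0.87. Of 3 acinar markers CPA1 rose while PRSS1 and CEL had 7 reads each in all libraries together. PPY had 3 reads, and no mesenchymal or endothelial marker was called, with PDGFRB and VWF at 0 throughout. The summed alpha level was 3869 to 9761 in non-senescent and 2273 to 5515 in senescent samples. The summed acinar level was 34.5 to 58.4 in non-senescent and 144 to 253 in senescent samples, the summed duct level 240 to 379 and 79.9 to 160, and the summed leukocyte level 19.9 to 51.1 and 13.5 to 40.9. The part of these markers and of depth in the carrier values was not tested.

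The carriers that changed in senescent cells were of several substrate classes and included 3 orphans, and the abundant ADP/ATP and phosphate carriers were not called. No test compared the classes. SLC25A12 and SLC25A22, which carry aspartate-glutamate and glutamate, rose 2.11-fold and 2.15-fold. SLC25A40, for glutathione, and SLC25A17, for peroxisomal cofactors, fell 1.89-fold and 1.57-fold. Of the 48 carriers, 40 had a mean of 5 or more normalised read counts over the 12 samples and were tested. A carrier was called when its adjusted p was under 0.1 and it moved by more than 1.5-fold, with limma on log2(normalised read count + 1) and batch in the model. Of the 40, 10 (25%) were called, against 23.4% of all 13847 genes tested, so the family as a whole was called about as often as the background. There were 4 higher carriers (11.6% of all genes) and 6 lower ones (11.8% of all genes). A further 5 had an adjusted p under 0.1 with a smaller fold change and 25 did not pass. The median log2 fold change over the 40 was -0.01, against 0.01 over all genes tested, and the median size of the log2 fold change was 0.26, against 0.33. In bulk RNA, fewer cells of a type and less RNA per cell cannot be told apart.

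**Figure D1:**
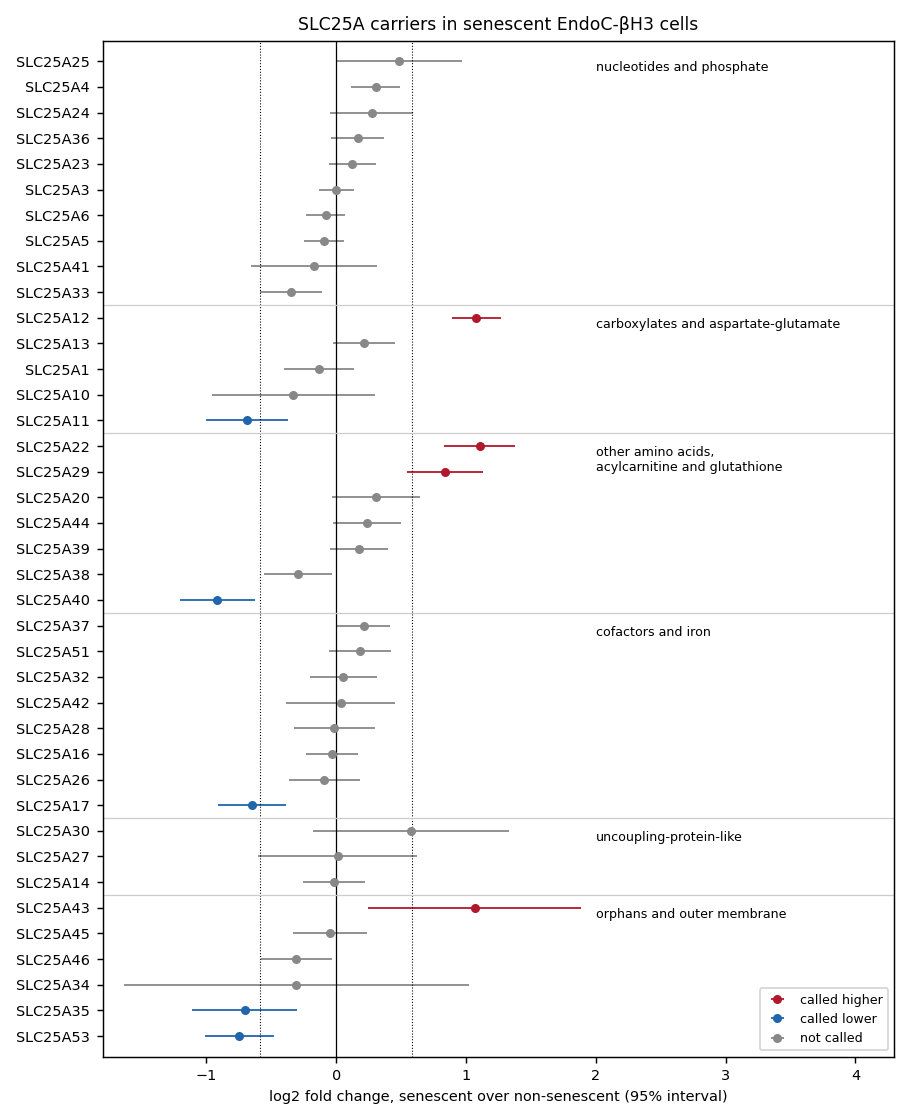
Log2 fold change, senescent over non-senescent, of 39 of the 40 SLC25A carriers tested, grouped by what they carry. Points are limma estimates, bars are 95% intervals and dotted lines mark a 1.5-fold change. Red points are the 4 carriers called higher and blue points 5 of those called lower, and the group of nucleotide and phosphate carriers has neither.

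The promoters of 3 carriers that rose and 1 that fell are shown to set side by side which of the motifs below they hold. They are the 3 carriers called higher whose groups were apart within both batches, and the lower one with most kinds of match. Each is the RefSeq promoter of GRCh38.p14, 250 bases before to 50 after the transcript start, read 5′ to 3′ on the minus strand of the chromosome. Capitals mark matches to the motifs searched. They lie at chr2:171894195-171894494 (SLC25A12), chr11:796189-796488 (SLC25A22, 1 of 4 starts in the table, the one with most matches), chr14:100306395-100306694 (SLC25A29) and chr22:40819297-40819596 (SLC25A17).
SLC25A12: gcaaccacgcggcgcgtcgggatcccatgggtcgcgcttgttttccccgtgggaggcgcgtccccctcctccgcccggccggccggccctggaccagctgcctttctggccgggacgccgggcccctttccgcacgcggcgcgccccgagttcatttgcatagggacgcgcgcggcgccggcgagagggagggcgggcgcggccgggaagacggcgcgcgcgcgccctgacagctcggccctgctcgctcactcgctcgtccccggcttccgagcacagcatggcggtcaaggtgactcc
SLC25A22: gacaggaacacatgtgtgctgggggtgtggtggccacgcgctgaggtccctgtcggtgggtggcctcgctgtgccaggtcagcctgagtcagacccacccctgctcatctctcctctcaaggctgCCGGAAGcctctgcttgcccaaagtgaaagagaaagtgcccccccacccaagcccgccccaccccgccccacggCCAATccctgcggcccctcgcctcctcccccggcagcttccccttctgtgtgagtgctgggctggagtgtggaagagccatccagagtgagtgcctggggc
SLC25A29: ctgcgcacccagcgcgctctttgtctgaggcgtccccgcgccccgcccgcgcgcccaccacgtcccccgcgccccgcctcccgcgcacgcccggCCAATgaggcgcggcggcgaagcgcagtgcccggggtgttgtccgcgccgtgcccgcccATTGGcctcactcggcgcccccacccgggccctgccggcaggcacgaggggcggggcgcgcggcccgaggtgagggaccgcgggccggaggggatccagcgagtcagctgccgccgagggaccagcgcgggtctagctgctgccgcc
SLC25A17: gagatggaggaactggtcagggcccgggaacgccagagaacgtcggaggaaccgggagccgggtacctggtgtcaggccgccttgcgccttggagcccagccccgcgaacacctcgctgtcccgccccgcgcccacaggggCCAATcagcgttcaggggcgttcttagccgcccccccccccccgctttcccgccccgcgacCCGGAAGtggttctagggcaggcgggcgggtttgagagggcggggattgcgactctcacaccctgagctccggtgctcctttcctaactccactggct

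A set of 6 motifs was searched on both strands, and a gene counted when any of its starts held a match. The ETS core CCGGAAG was in 11 of the 40 carriers with a promoter (27.5%) and in 12.2% of all 27305 genes of the RefSeq table, which includes genes that these cells do not express. The E-box CACGTG was in 9 carriers (22.5%, against 8.77%) and CCAAT in 21 (52.5%, against 39.7%). The CRE TGACGTCA was in 3 (7.5%, against 2.25%), an E2F spelling, TTTCGCGC or TTTGGCGC, in 1 (2.5%, against 1.4%), and the palindromic NRF1 motif in 0 (against 1.52%). These shares were matched neither for GC content nor for the number of starts of a gene. The promoters shown had 66.7% to 80% GC, against a median of 58.7% over all promoters. No motif contains another, though the E2F and NRF1 letters can share their GCGC. Of the 4 carriers that rose, SLC25A22, over its 4 starts, held ETS, E-box and CCAAT matches, SLC25A29 held CCAAT matches, and SLC25A12 and SLC25A43 held none of the 6. Of the 4 lower carriers with a promoter, SLC25A17 held ETS and CCAAT matches and SLC25A53 a CCAAT match. So no searched motif was shared by all carriers that moved one way. These matches are descriptions of letters, and no match says nothing about a factor.

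SLC25A12 (aralar) and SLC25A13 (citrin) exchange matrix aspartate for cytosolic glutamate, the step that drives the malate-aspartate shuttle one way. SLC25A12 (chr2:171783405-171999859) was at 153, 196 and 251 normalised read counts (lowest, median and highest) in non-senescent samples and at 349, 430 and 452 in senescent ones. No senescent sample overlapped the non-senescent ones. The change on the log2 scale was 1.08 ± 0.09 (SE; adjusted p = 5.22e-08), being 1.16 in A and 1.04 in B. SLC25A13 (chr7:96120220-96322147) was at 321, 376 and 379 in non-senescent and 335, 435 and 534 in senescent samples. Those ranges overlapped, and the estimate of 0.22 ± 0.11 (log2 scale, SE) did not pass the test (adjusted p = 0.145). Its batch values were 0.58 in A and 0.03 in B, a difference that did not pass the interaction test (adjusted p = 0.175). SLC25A12 held 32.2% to 40.1% of the reads of the pair in non-senescent samples (median 34.2%) and 39.5% to 55.7% in senescent ones (median 51.1%). Within each batch every senescent sample had the larger share. In batch B the median share went from 35.4% to 55.0%, and SLC25A12 had more reads than SLC25A13 in 3 of the 4 senescent samples.

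Among the other carriers of carboxylates SLC25A11 fell. It exchanges oxoglutarate for malate and is the other carrier of the malate-aspartate shuttle (chr17:4937130-4940053). SLC25A11 was at 84.8, 115 and 202 normalised read counts in non-senescent and 42.3, 64.7 and 158 in senescent samples. The overall ranges overlapped because batch A sat higher, at 188 and 202 against 155 and 158, while batch B was at 84.8 to 116 against 42.3 to 65.4. Within each batch the groups were apart. The change on the log2 scale was -0.69 ± 0.15 (SE; adjusted p = 0.00148), from -0.32 in A and -0.87 in B. The call was lost in batch A alone (adjusted p = 0.0582, and a fold change under 1.5), without the batch term (adjusted p = 0.248) and with array weights (log2 fold change -0.58, adjusted p = 0.00279). The citrate carrier SLC25A1 had a log2 fold change of -0.13 (95% interval -0.40 to 0.14) and the dicarboxylate carrier SLC25A10 one of -0.33 (95% interval -0.96 to 0.30), and neither passed. SLC25A21, the oxodicarboxylate carrier, had 1 read in all 12 libraries.

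SLC25A22 and SLC25A18 bring glutamate into the matrix. SLC25A22 (chr11:790475-798281) was at 49.7, 76.5 and 97.8 normalised read counts in non-senescent and 127, 160.5 and 202 in senescent samples. All 6 senescent samples lay above all 6 non-senescent ones. The change on the log2 scale was 1.10 ± 0.13 (SE; adjusted p = 3.02e-06), being 1.07 in A and 1.12 in B. SLC25A18 had 1 read in each group, so SLC25A22 held 98.3% to 100% of the reads of the pair in every sample. SLC25A29, which carries basic amino acids (chr14:100291116-100306547), was at 26.2, 53.4 and 62.1 in non-senescent and 47.7, 97.6 and 117 in senescent samples. Its ranges overlapped across batches but not within them, and the change on the log2 scale was 0.84 ± 0.14 (SE; adjusted p = 1.21e-04). The last 500 bases of its transcript overlap 2 long non-coding RNAs, 1 on each strand, that are not analysed here.

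The remaining amino acid carriers did not move past the limits. SLC25A38, for glycine, was at 157 to 414 normalised read counts in non-senescent and 143 to 414 in senescent samples, with a change of -0.29 ± 0.12 on the log2 scale (SE; adjusted p = 0.0714). SLC25A44, for branched-chain amino acids, had a log2 fold change of 0.24 (95% interval -0.02 to 0.50), and SLC25A20, for acylcarnitine, one of 0.30 (95% interval -0.04 to 0.64). The ornithine carriers SLC25A15 and SLC25A2 were below the filter, with 23 reads against 28 and 0 against 5 in the non-senescent and senescent groups. Of the 7 carriers of amino acids, acylcarnitine and glutathione tested, 2 were higher (11.6% of all genes) and 1 was lower (11.8% of all genes).

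That lower one was SLC25A40, 1 of the 2 carriers linked to mitochondrial glutathione entry (chr7:87833568-87876360). It was at 69.6, 80.9 and 97.8 normalised read counts in non-senescent and 35.7, 44.7 and 47.6 in senescent samples. Every senescent sample lay below every non-senescent one. The change on the log2 scale was -0.92 ± 0.14 (SE; adjusted p = 4.6e-05), being -1.02 in A and -0.87 in B. Its paralog SLC25A39 is far more abundant, at 962 to 1388 in non-senescent and 1089 to 1580 in senescent samples. In batch A SLC25A39 rose, from 1011 and 962 in non-senescent to 1580 and 1535 in senescent samples. In batch B the ranges of 1194 to 1388 and 1089 to 1368 overlapped. The pooled estimate of 0.17 ± 0.11 (log2 scale, SE) did not pass (adjusted p = 0.215), and the batch values were 0.66 in A and -0.07 in B. It was the only carrier of the 40 whose response differed between batches (B minus A -0.73, interaction adjusted p = 0.00897), against 4.21% of all genes. As the smaller member, SLC25A40 held 5.05% to 9.23% of the reads of the pair in non-senescent samples and 2.82% to 4.06% in senescent ones, with no overlap.

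**Figure D2:**
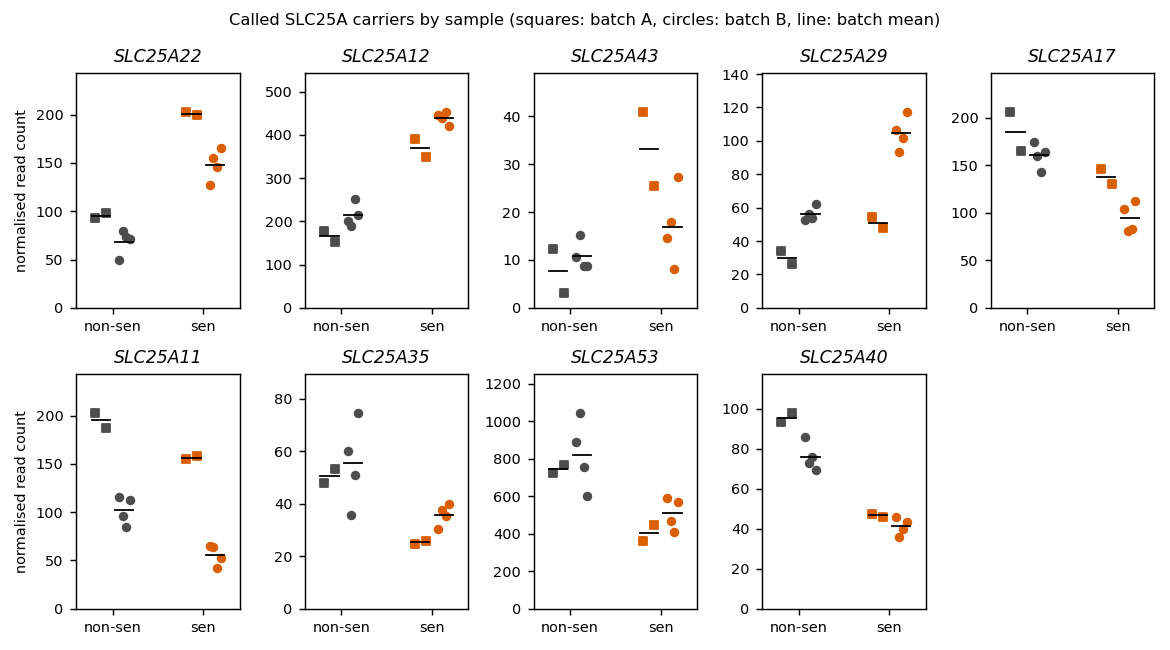
Normalised read counts of 9 of the 10 called SLC25A carriers in each of the 12 samples, with squares for batch A, circles for batch B and lines for batch means. SLC25A12 and SLC25A22 are higher, and SLC25A40 and SLC25A53 lower, in all 6 senescent samples than in any non-senescent one. SLC25A11 and SLC25A29 are apart within batches but not across them, and SLC25A43 and SLC25A35 overlap in batch B.

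Of 9 carriers of cofactors and iron tested 2 were called (22.2%, against 23.4% of all genes). Both fell (11.8% of all genes), among them SLC25A17. It carries cofactors across the peroxisomal membrane instead of the mitochondrial one (chr22:40769630-40819399). SLC25A17 was at 143, 164 and 206 in non-senescent and 80.8, 108 and 146 in senescent samples, with a change of -0.65 ± 0.12 on the log2 scale (SE; adjusted p = 5.27e-04). The 2 ranges met only where the highest senescent sample, of batch A, passed the lowest non-senescent one, of batch B. Its call was lost in batch A alone (log2 fold change -0.42, adjusted p = 0.0725).

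The mitoferrins, SLC25A37 and SLC25A28, deliver iron to the matrix for heme and iron-sulfur clusters. SLC25A37 was the fifth most abundant carrier, at 699.9 to 1049 normalised read counts in non-senescent and 772 to 1210 in senescent samples, with a change of 0.21 ± 0.10 on the log2 scale (SE; adjusted p = 0.0922) below the fold limit. SLC25A28 was at 95.04 to 194 and 97.9 to 176, with a log2 fold change of -0.01 (95% interval -0.33 to 0.30). It held 8.31% to 18.6% of mitoferrin reads in non-senescent and 8.07% to 18.5% in senescent samples, which overlap. The carriers of NAD (SLC25A51), coenzyme A (SLC25A42 and, by its link to that cofactor, SLC25A16), folate (SLC25A32) and S-adenosylmethionine (SLC25A26) had log2 fold changes from -0.09 to 0.18, none passing. SLC25A52, the near copy of SLC25A51, was below the filter, with 5 reads against 7.

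The ADP/ATP and phosphate carriers hold most of the family's RNA. They supply the ATP synthase with its substrates and send ATP out. SLC25A5, SLC25A6 and SLC25A3 made up 22.7%, 20.6% and 16.7% of all normalised reads of the family, 60.1% in all, counted as 3′-end reads and not divided by transcript length. These shares are of means over all 12 samples, and they were smaller in batch A. In non-senescent samples of A the 3 means were 3803, 3047 and 1759, and the median family sum was 17884. In those of B the means were 5816, 5456 and 4579, and the median family sum was 24170. SLC25A5 (chrX:119468422-119471396) was at 3668, 5406 and 6317 normalised read counts in non-senescent and 3740, 5032 and 5487 in senescent samples, with a log2 fold change of -0.10 (95% interval -0.25 to 0.06). SLC25A6 was at 2872, 5221 and 6015 and at 3284, 4580 and 5173, with -0.08 (95% interval -0.23 to 0.07). SLC25A3, the phosphate carrier, was at 1705, 4292 and 5157 and at 1690, 4460 and 4875, with 0.00 (95% interval -0.13 to 0.13). Together the 3 intervals span -0.25 to 0.13 on the log2 scale, and all 3 carriers were lower in every sample of batch A than in any of batch B.

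SLC25A4, the ADP/ATP carrier of heart and muscle, was the exception in a small way. It was at 455 to 983 normalised read counts in non-senescent and 583 to 1277 in senescent samples, with a change of 0.30 ± 0.09 on the log2 scale (SE; adjusted p = 0.0118) below the fold limit. In batch A the levels were apart, at 983 and 858 in non-senescent and 1165 and 1277 in senescent samples. In batch B the ranges of 455 to 644 and 583 to 661 overlapped, and batch B alone gave 0.25 (adjusted p = 0.123). Its share of ADP/ATP carrier reads was 11.6% and 12.1% in the non-senescent and 13.7% and 15.4% in the senescent samples of batch A, and 3.83% to 5.25% against 5.59% to 6.12% in batch B. In both batches the senescent shares were above all the non-senescent ones. For the testis form SLC25A31 the senescent libraries held 3 reads and the others 0. The family has many processed pseudogenes, and their 40 rows held 6 reads between them, against 277502 for the 48 carriers.

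**Figure D3:**
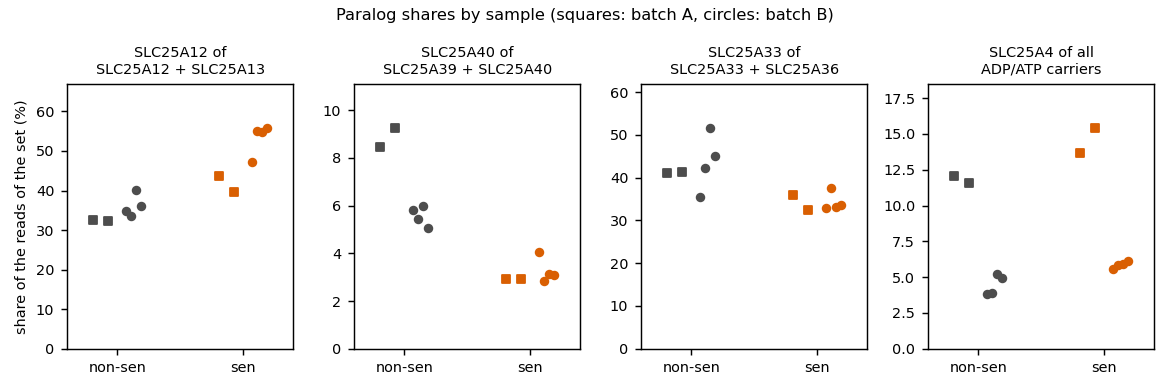
Share of a set's normalised reads held by 1 member in each of the 12 samples, in percent, with squares for batch A and circles for batch B. SLC25A12 and SLC25A4 hold larger shares in the senescent samples of each batch, SLC25A40 holds a smaller share in all senescent samples, and the SLC25A33 shares overlap. The sets share reads between their members, so the points are a description with no test.

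The ATP-Mg/phosphate carriers set the size of the matrix adenine nucleotide pool, and the pyrimidine carriers feed mitochondrial DNA and RNA synthesis. SLC25A23 (log2 fold change 0.12, adjusted p = 0.281), SLC25A24 (0.27, adjusted p = 0.17), SLC25A25 (0.49, adjusted p = 0.105) and SLC25A41 (-0.17, adjusted p = 0.592) did not pass. SLC25A25 was higher in every senescent sample within each batch, at 13.2 to 26.2 against 14.5 to 37.8 over both. In batch A the groups almost met, at 14.45 in non-senescent A1 and 14.49 in senescent A2. The 3′ end of SLC25A25 is shared with an antisense RNA that is not analysed here. SLC25A33 was at 141, 171 and 224 in non-senescent and 106, 144 and 181 in senescent samples, with a change of -0.35 ± 0.11 on the log2 scale (SE; adjusted p = 0.0207) below the fold limit. SLC25A36 had 0.17 ± 0.10 (SE; adjusted p = 0.19), so SLC25A33 held 35.4% to 51.5% of the pair's reads in non-senescent and 32.4% to 37.6% in senescent samples. Of the 10 carriers of nucleotides and phosphate tested, 0 were called by limma (23.4% of all genes), 0 by edgeR and 0 by DESeq2, while 3 had an unadjusted p under 0.05 and 2 an adjusted p under 0.1.

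The carriers taken here as orphans, with no substrate assigned, and the outer membrane member SLC25A46 gave 1 rise and 2 falls among 6 tested. Of all genes tested 11.6% were called higher and 11.8% lower, and no test compared this small class with them. SLC25A53 was the most abundant of them (chrX:104099214-104157009), at 599, 760 and 1042 normalised read counts in non-senescent and 362, 459 and 589 in senescent samples. No senescent sample reached a non-senescent one, and the change on the log2 scale was -0.75 ± 0.13 (SE; adjusted p = 1.5e-04), with -0.88 in A and -0.68 in B. SLC25A35 and SLC25A43 were called outside the naming rule and are given after their values were seen. SLC25A35 (chr17:8287763-8295400) was at 35.8, 52.2 and 74.5 in non-senescent and 24.7, 32.9 and 39.9 in senescent samples, with a change of -0.70 ± 0.19 on the log2 scale (SE; adjusted p = 0.00735) that was not called in batch B alone (adjusted p = 0.118). Its last 500 bases overlap RANGRF on the other strand, which had 2415 reads against 536 and itself fell (log2 fold change -1.02 ± 0.13 SE; adjusted p = 5.84e-06). Whether the counting used strand is not stated, so reads of 1 gene may have been counted for the other, which was not tested.

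SLC25A43 was the least certain of the calls. It was at 12.2 and 3.18 normalised read counts in the non-senescent and 40.9 and 25.4 in the senescent samples of batch A, and at 8.70 to 15.1 and 8.01 to 27.4 in batch B, where the groups overlapped. The change on the log2 scale was 1.07 ± 0.39 (SE; adjusted p = 0.0381), with 2.16 in A and 0.52 in B. Without the non-senescent sample A2 it was 0.72 (adjusted p = 0.103), without the senescent sample A1 0.85 (adjusted p = 0.115), and in batch B alone adjusted p = 0.329. SLC25A46, which acts in outer membrane dynamics, had a change of -0.31 ± 0.13 on the log2 scale (SE; adjusted p = 0.0736) below the fold limit. SLC25A45 had -0.05 (95% interval -0.33 to 0.23), SLC25A34 -0.31 (95% interval -1.64 to 1.02), and SLC25A47 and SLC25A48 were below the filter, with 8 reads against 3 and 5 against 12. Among the uncoupling-protein-like carriers, SLC25A14, SLC25A27 and SLC25A30 had log2 fold changes of -0.02, 0.01 and 0.58, none passing, the last with a 95% interval from -0.18 to 1.33.

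The carriers apart within both batches were mostly those called. Within both batches 4 carriers were higher and 5 lower in every senescent sample than in any non-senescent one, against 11.9% of all genes in each direction and 23.8% in either. The higher ones were SLC25A12, SLC25A22, SLC25A29 and, by very little in batch A, SLC25A25. The lower ones included SLC25A11, SLC25A17, SLC25A40 and SLC25A53. Of the 40 carriers, 21 (52.5%) moved in the same direction in both batches, where the share over all genes tested was 70.4%. In batch A alone SLC25A39 was also called higher, and SLC25A10 and SLC25A34 lower (log2 fold changes -0.70 and -1.32, adjusted p = 0.0529 and 0.0178), while over both batches these 3 were not called.

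**Figure D4:**
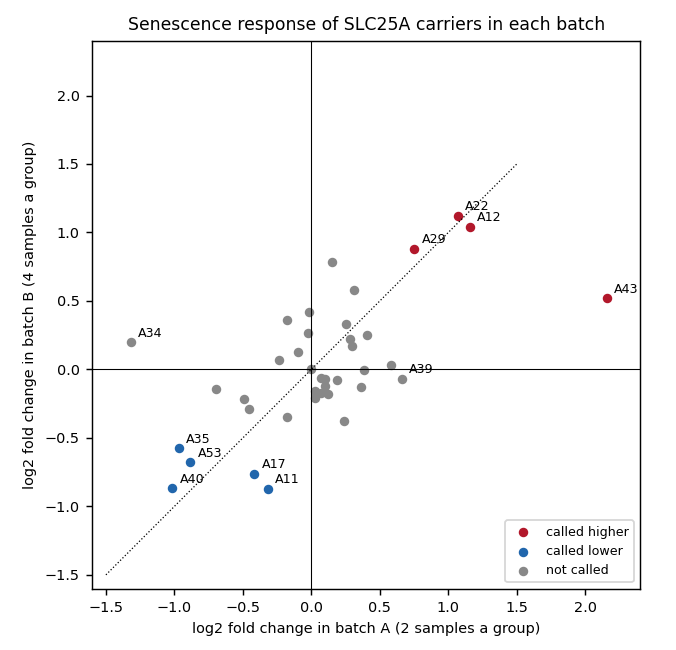
Log2 fold change of 39 of the 40 carriers in batch B (4 samples a group) against batch A (2 samples a group), with red and blue for the carriers called higher and lower and a dotted line where both are equal. SLC25A12, SLC25A22 and SLC25A29 lie near the line at the upper right and SLC25A40 and SLC25A53 at the lower left. SLC25A43 has 2.16 in A and 0.52 in B, and SLC25A39 has 0.66 in A and -0.07 in B.

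The carriers work beside the pyruvate carrier and the enzymes of the shuttles, which were taken as lists. MPC1 and MPC2 form the mitochondrial pyruvate carrier, which is of another protein family. MPC1 fell from 1398, 2290 and 2747 normalised read counts in non-senescent samples to 744, 1026 and 1295 in senescent ones, with no overlap and a change of -1.11 ± 0.08 on the log2 scale (SE; adjusted p = 7.05e-09). MPC2 had 0.05 ± 0.11 (SE; adjusted p = 0.737). Of 13 enzymes of the malate-aspartate and citrate-pyruvate shuttles 11 were tested and 1 was called (9.09%, against 23.4% of all genes). That was GOT1, the cytosolic aspartate aminotransferase, at 242, 303 and 341 in non-senescent and 123, 155 and 266 in senescent samples (log2 fold change -0.81 ± 0.12 SE, adjusted p = 3.58e-05). Its mitochondrial counterpart GOT2 had 0.34 ± 0.11 (SE; adjusted p = 0.0236), and MDH2 and IDH2 had -0.53 and -0.47 (adjusted p = 0.00166 and 5.67e-05), all below the fold limit. GOT1 had -0.44 in A, under the fold limit, and -0.99 in B, and MDH2 had -0.17 and -0.72. IDH2 had -0.58 in A and -0.41 in B, and GOT2 had 0.66 and 0.19. None of these batch differences passed the interaction test (adjusted p = 0.196 for GOT1, 0.208 for MDH2, 0.605 for IDH2 and 0.300 for GOT2). MDH1, the cytosolic malate dehydrogenase, had -0.13 (adjusted p = 0.276), with 0.23 in A and -0.31 in B, and differed between batches (interaction adjusted p = 0.0569). Of the carriers and enzymes of the malate-aspartate shuttle, SLC25A12 rose, SLC25A11 and GOT1 fell, and SLC25A13, GOT2, MDH1 and MDH2 were not called. The malic enzymes ME1 and ME3 were below the filter, with 42 and 7 reads.

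**Figure D5:**
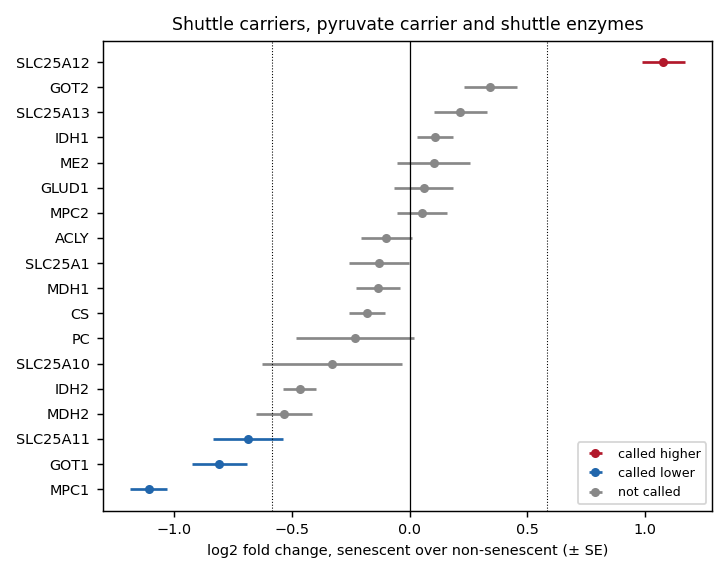
Log2 fold change, senescent over non-senescent, of the carriers of the shuttles, the pyruvate carrier and the shuttle enzymes tested, with limma estimates as points, the SE as bars and dotted lines at a 1.5-fold change. SLC25A12 is the 1 gene called higher, and MPC1, GOT1 and SLC25A11 are the 3 called lower.

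Proteins that insert carriers into the inner membrane did not change past the limits. Of 10 genes of the TIM22 import route (receptor, small chaperones and TIM22 subunits) 0 were called by limma (23.4% of all genes), edgeR or DESeq2, 2 had both an unadjusted p under 0.05 and an adjusted p under 0.1 (TIMM13, -0.37, and TIMM29, -0.34) and the list median was -0.07. Of 6 genes of the outer membrane 2 were called (33.3%, against 23.4% of all genes). TOMM20 rose (log2 fold change 0.65 ± 0.10 SE, adjusted p = 5.37e-05) and TOMM40 fell (-0.85 ± 0.14 SE, adjusted p = 1.33e-04). The TOMM40 response differed between batches, with -0.29 in A, under the fold limit, and -1.14 in B (interaction adjusted p = 0.0588). The other 4, the VDAC channels and TOMM22, had log2 fold changes from -0.37 to -0.23, all with an adjusted p under 0.1 and below the fold limit. Of 5 SLC25 relatives under other symbols, UCP2, an inner membrane carrier linked to insulin secretion, was at 426 to 637 in non-senescent and 522 to 920.5 in senescent samples (log2 fold change 0.38 ± 0.08 SE, adjusted p = 6.6e-04, below the fold limit). MTCH1 and MTCH2 did not pass, with 0.20 and 0.05, and UCP1 and UCP3 had 8 and 33 reads.

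The summed level of the 48 carriers was 17286 to 25474 normalised read counts in non-senescent and 19192 to 23148 in senescent samples. In batch A it was 17286 to 18482 and 19192 to 19304, higher in the senescent samples, whereas as ppm of all reads of the library it was 2451 to 2600 and 2433 to 2514, with the higher median in the non-senescent ones. The direction in batch A thus turned with the scaling. In batch B the median was higher in non-senescent samples on both scales, with overlap in normalised read counts (22233 to 25474 and 22467 to 23148) and none in ppm (3256 to 3568 and 3003 to 3111).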

How the data were processed

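RNA of 12 samples (6 senescent, 6 non-senescent) was sequenced from the 3′ end by CEL-seq2. Groups, batches A and B and replicate names came from the labels. Reads were trimmed (Cutadapt), quantified (Salmon 0.13.1, GRCh38) and normalised (DESeq2) by the authors. Annotation, strand setting and molecular identifier handling are not given in the sources used here. What the authors deposited is a signal, the reads of a gene over the size factor of its sample, called normalised read counts. The authors' own fold changes, errors, test statistic and p-values were not used.

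All 196021 non-zero values (100%) were whole multiples, within 0.001, of the smallest value of their column, so whole reads were recovered. As the table is normalised, limma 3.58.1 (R 4.3.3) was the main test, with trend on log2(value + 1) for 13847 genes with a mean of at least 5, with batch and group as terms and Benjamini-Hochberg adjustment over all of them. Such fold changes understate low genes. Calls needed adjusted p < 0.1 and a change above 1.5-fold. Interactions of batch and group were tested at the same adjusted p. On the recovered reads edgeR 4.0.16 called 3237 genes and DESeq2 1.42.0 called 3223, against 3237 by limma. The code was tested on simulated data. Gene positions are from GENCODE on GRCh38, and all 48 carriers matched by symbol; 40 had a RefSeq promoter.

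Counts cover all 48 carriers, of which 1 is not reported here. Carriers and lists were chosen with earlier results of these data known. Given in full were called carriers with a mean of at least 20 whose groups were apart within both batches, paralog sets, the 5 most abundant carriers and carriers passing the interaction test. Alternatives were other pseudocounts, filters, scalings, batch terms, single batches, tools and left-out samples.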

Additional observations from a re-analysis of the deposited data

Results flagged for a closer look

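SLC25A13 in the non-senescent sample A2 lay apart from its group, at 321.1 normalised read counts against 372 to 379 in the other 5 samples (gap over range 0.877). It was 1 of 48 groups of samples examined, and chance alone marks about 1 in 20. The response of SLC25A39 differed between batches, with B minus A of -0.7268 on the log2 scale and an interaction adjusted p of 0.00897; its values per sample are given above.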

How the results depend on the processing

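Over the alternatives 3 to 5 carriers were called higher and 5 or 6 lower (6 and 9 on adjusted p alone). Leaving out 1 sample gave 3 to 5 higher and 6 lower: SLC25A43 was lost without non-senescent A2 or senescent A1, and SLC25A30 was gained without non-senescent B2 (log2 fold change 0.83, adjusted p = 0.0574). Without the batch term 3 were higher and 5 lower (SLC25A11 and SLC25A43 lost), with 2143 genes called in all against 3237. With the replicate block in place of the batch term the counts stayed at 4 and 6, with 3211 genes in all. Pairing by replicate number was looked for in the deviations from the mean of each group and batch. In batch B same-numbered samples correlated at -0.0052 to 0.0164, and not every sample correlated best with its own number. In batch A, with 2 samples a group, the deviations mirror each other. Its correlations are thus 1 number with either sign (-0.05 for same-numbered samples), which says little on pairing. SLC25A12, SLC25A22, SLC25A29, SLC25A40 and SLC25A53 were called under all alternatives run, and SLC25A43 could not be tested with a mean of at least 20 required. Scaling each library to the same total moved the median of all genes to -0.09 and the higher share of all calls from 49.6% to 36.9%, without changing a carrier's call.

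In a single batch 19 of the 40 carriers turned sign, none of them called; 10 of these are outside the naming rule, among them SLC25A51 (-0.18 in A), SLC25A34 (0.20 in B) and SLC25A1 (0.03 in A). The values below are of the carriers given in full, and the cause was not tested. SLC25A3 (0.00) was -0.105 with the same total, -0.0116 with upper quartile scaling, -0.004711 in batch A, -0.007522 with edgeR and -0.0007133 with DESeq2, and -0.03251 to 0.03859 with a sample left out. In batch A alone SLC25A5 was 0.02644, SLC25A6 0.1231, SLC25A24 -0.02015, SLC25A28 0.09838, SLC25A36 -0.02565 and SLC25A41 0.2406. In batch B alone SLC25A23 was -0.007227 and SLC25A39 -0.06799. SLC25A28 was also 0.01856 with array weights and -0.0971 to 0.07785 with a sample left out.

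Carriers with few reads, such as SLC25A34 and SLC25A43, have wide intervals.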

Other observations

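Carriers differed in level between the batches about as often as other genes. Of the 40 carriers, 17 (42.5%) had no overlap between the samples of A and B, 7 of them higher in B and 10 higher in A, against 39.3% of all genes tested. For 29 of the 40 (72.5%, against 69% of all genes) the difference between the batch means of non-senescent samples was larger than the senescence difference. SLC25A41 was at 7.95 to 12.1 normalised read counts in A and 21.7 to 45.3 in B, SLC25A45 at 49.5 to 60.2 and 138 to 229, and SLC25A3 at 1690 to 1818 and 4081 to 5157. In the other direction SLC25A10 was at 43.1 to 86.1 in A and 7.53 to 28.9 in B, SLC25A51 at 438 to 569 and 175 to 284, and SLC25A14 at 303 to 343 and 101 to 151. None of these 6 was called for senescence. These 6 were chosen after their values were seen.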
